A study of Mus musculus with 5 samples.

Results

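Chromatin and DNA methylation regulators are the enzymes and binding proteins that add, remove and read methyl and acetyl groups on histones and DNA, or that move nucleosomes. A list of 47 such genes was read from the count tables by gene symbol, and all 47 were found among the 32531 genes listed. They fall into 15 writers, 16 erasers, 3 readers and 13 remodellers. RNA was measured by translating ribosome affinity purification, in which an antibody against EGFP recovers polysomes whose ribosomal protein Rpl10a carries the EGFP tag, and bound RNA is sequenced. The mice were adult and untreated and carried the Rbp4-Cre driver of line KL100 with the Cre-dependent Rosa26-LSL-EGFP/Rpl10a allele. There were 3 libraries from dentate gyrus and 2 from cerebral cortex. Every library carries the same driver, the same Cre-dependent tag and the same pulldown, and no input or untagged library was analysed here. The promoter of the Rbp4 transgene decides which neurons carry the tag in each tissue, so the pulldown is aimed at tagged cells and not at whole tissue. How much RNA of untagged cells was carried over was not measured. Neither the sex of the mice nor whether replicates were separate animals is stated, so a p-value reflects only how far these libraries spread, which may be technical.

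Writers place marks, erasers take them off and readers bind them. DNA methyltransferases methylate cytosine, which TET enzymes oxidise, and adult neurons are known for high levels of Dnmt3a-dependent methylation outside CG sites and of hydroxymethylcytosine. Acetylation of histone tails accompanies active promoters and enhancers, whereas the Polycomb methyl mark accompanies silenced genes. Remodellers use ATP to slide or evict nucleosomes, and the BAF complex exchanges several subunits as neural progenitors become neurons. Many of these genes cause neurodevelopmental disorders in people when 1 copy is lost.

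Gene counts summed to 22600963 to 36837908 in the dentate gyrus libraries and to 23967356 and 34887421 in the cerebral cortex libraries. Levels are given as counts per 1000000 (CPM) on library sizes scaled by trimmed mean of M values. No library repeated another, since chi-square values between replicates were 42.4 to 58.6 per degree of freedom. The summed level of 8 granule cell markers was 5148 to 5535 CPM in dentate gyrus and 393 and 448 CPM in cortex. The 6 layer 5 markers summed to 232 to 403 CPM in dentate gyrus and 1142 and 1062 CPM in cortex. Both labels match these sums, but the lists were chosen with earlier results of these data known, so the match is no independent check. Of the 6 layer 5 markers, 5 were lower in dentate gyrus, while Bcl6 was at 157 to 171 CPM there against 128 and 129 CPM in cortex. Dentate gyrus replicate 2 held the most Fezf2, Deptor and Tshz2 of its tissue, at 60.2, 14.1 and 31.6 CPM. The other dentate gyrus libraries held at most 17.5, 2.86 and 4.82 CPM of them. Other cell types differed too. Interneuron markers summed to 182 to 216 CPM in dentate gyrus and 886 and 865 CPM in cortex, with 1 of 6 higher and 4 lower in dentate gyrus. Sst made up most of the cortex sums, at 700 and 641 CPM, and was at 72.4 to 113 CPM in dentate gyrus. The gene called higher was Gad1, with a log2 change of 0.93 (SE 0.26). Astrocyte markers summed to 644 to 801 CPM in dentate gyrus and to 1135 and 1128 CPM in cortex, with 3 of 6 lower in dentate gyrus. Slc1a2 made up most of each sum, at 595 to 717 CPM in dentate gyrus and 984 and 1004 CPM in cortex. Aqp4, Gfap and Slc1a3 had estimates of the other sign, with log2 changes of 0.61, 1.55 and 1.16, and were not called. Oligodendrocyte markers summed to 161 to 222 CPM in dentate gyrus and 221 and 293 CPM in cortex. Precursor, vascular and microglial markers each summed to at most 24.2 CPM in any library, and the microglial gene C1qa had no count. Read classes split by tissue as well. Reads without a feature made up 13.3% to 14.8% in dentate gyrus and 10.6% and 11% in cortex, and reads that were not unique made up 25.0% to 25.4% in dentate gyrus and 29.95% and 31.8% in cortex. The ribosomal RNA precursor Rn45s took 0.891% to 1.01% of gene counts in dentate gyrus, against 1.78% and 2.37% in cortex. What part these cells and read classes had in the results was not tested, and fewer cells of a type cannot be told apart from less RNA per cell. Genes at 10 CPM or more and over 10-fold above every other library of their tissue numbered 5 in cortex replicate 1, 4 in cortex replicate 2, 1 in dentate gyrus replicate 2 and 0 in the other dentate gyrus libraries. The highest of them were Car8, with 411 CPM in cortex replicate 1 against 1.44 CPM in the other cortex library, and Dgkk, with 31.7 CPM in dentate gyrus replicate 2 against at most 1.82 CPM in the other dentate gyrus libraries. With only 2 cortex libraries, which of them stands apart cannot be told. Calls are also given with cortex replicate 1 and dentate gyrus replicate 2 both left out, named here the omitted pair.

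Compared with cortex, 15 of the 47 regulators were higher in dentate gyrus and 2 were lower, and 30 did not pass. The background was 10.5% of 14136 tested genes called higher and 10.8% called lower, by edgeR's quasi-likelihood test at an adjusted p under 0.05, against 31.9% and 4.25% of the regulators. All 47 passed the filter on low counts. The median log2 fold change, dentate gyrus minus cortex, was 0.28 over the regulators and 0.02 over all tested genes, and 32 of 47 were above 0. Values of the tissues did not overlap for 31 of 47 regulators, where the background was 50.1%. The same background holds where single genes are said below not to overlap, and for called genes it adds no support. Changes were modest: among called genes, 5 of 17 regulators moved more than 2-fold, and 2064 of 3009 genes in all did. The median level was 68.2 CPM over the regulators and 13.6 CPM over all tested genes. What part level had in the fold sizes was not tested.

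**Figure D1:**
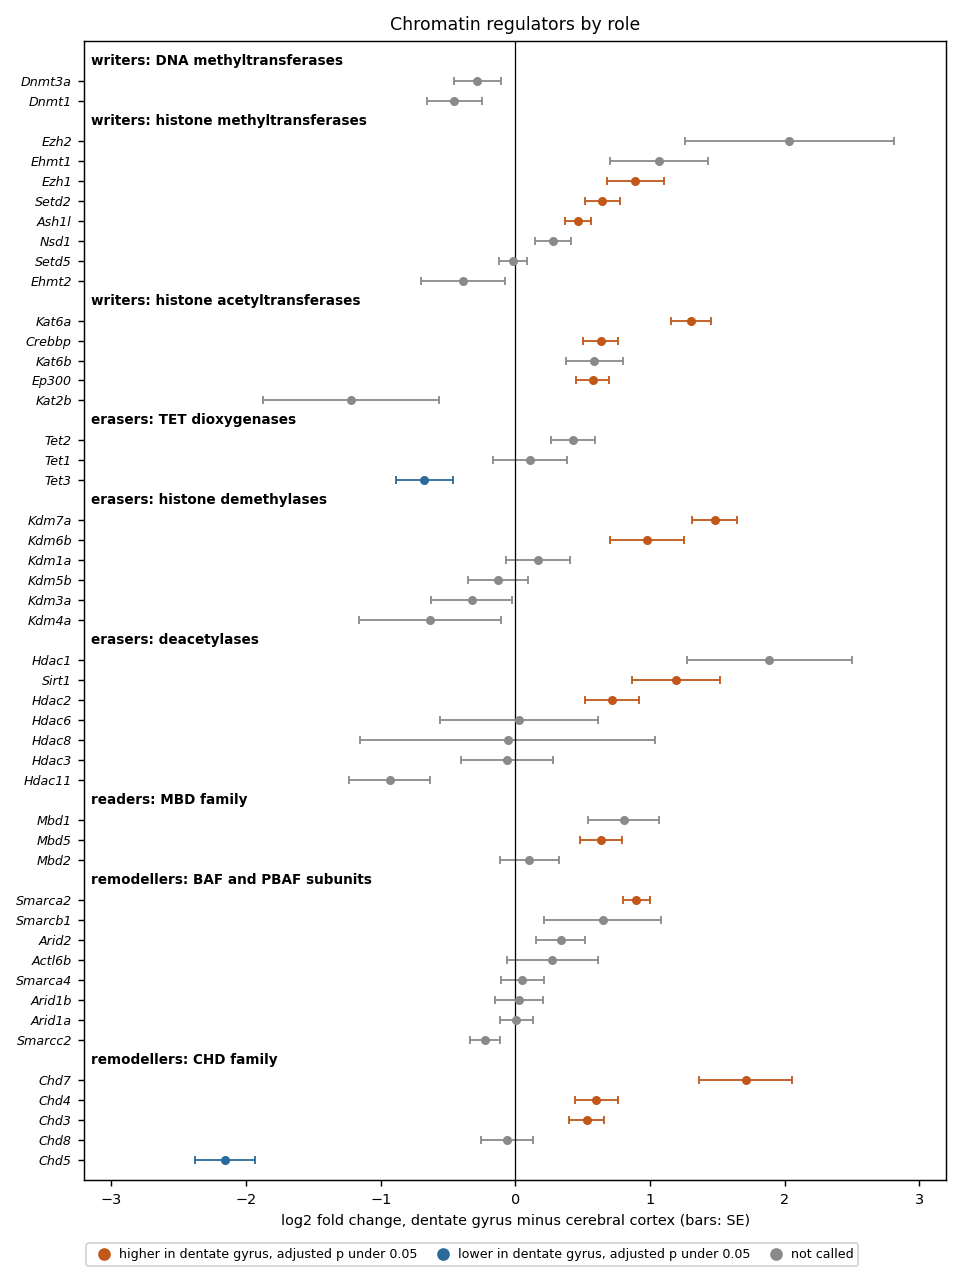
Log2 fold change of each regulator, dentate gyrus minus cerebral cortex, with its standard error as bars, grouped by role and class. Chd5 lies furthest to the left at -2.15, and called acetyltransferases, histone methyltransferases and deacetylases all lie to the right of 0.

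The regulators are abundant and have long transcripts, and both move with the share of genes called. Their median exon length was 6718 bases against 3495 bases over 12839 tested genes with a length. Of 618 tested genes at a mean of at least 300 CPM, 39.0% were higher in dentate gyrus and 24.6% lower, and of the 10 regulators at that level 7 were higher. Of 1474 genes between 100 and 300 CPM, 26.5% were higher, and 4 of 9 regulators were. Between 30 and 100 CPM the background was 15.96%, and 2 of 16 regulators were higher. Between 10 and 30 CPM it was 7.53%, and 2 of 6 regulators were higher, while under 10 CPM it was 2.76% and edgeR called 0 of 6 regulators. Of these 6, Ezh2 and Hdac1 had an unadjusted p under 0.05 and were called higher by DESeq2. By exon length, 18.2% of 1284 genes of 6 to 8 kb were higher and 14.3% lower, and 5 of 9 regulators of that length were higher and 0 lower. Of the longer genes, 22.5% of 1044 genes over 8 kb were higher and 15.8% lower, with a median log2 change of 0.17, and 8 of 19 regulators of that length were higher and 2 lower. Regulators of 4 to 6 kb were higher in 2 of 9 cases, where the background was 13.4%, and edgeR called 0 of 10 shorter ones. Of these 10, Ezh2, Hdac1, Hdac11 and Mbd1 had an unadjusted p under 0.05 and were called by DESeq2. What part abundance and length had in the count of 15, or in the counts by class given below, was not tested. With the trend on exon length taken out, an alternative chosen after the data were seen, the counts were 15 and 2. Mbd5 was then no longer called as higher, and Hdac1 was called instead. Antisense genes, whose reads cannot be told apart here, cover 595 exon bases of Chd8, 92 of Ezh2, 65 of Sirt1, 35 of Ash1l and 6 of Smarca2, and stretches of 4 further genes given with their values.

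**Figure D2:**
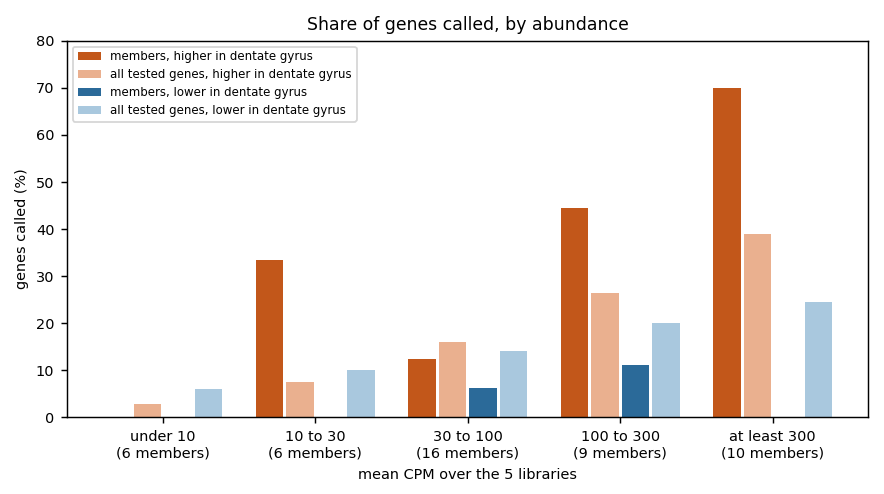
Share of genes called at an adjusted p under 0.05, in classes of mean CPM over the 5 libraries, for the regulators and for all tested genes. Dark bars are regulators and pale bars all tested genes, orange for higher and blue for lower in dentate gyrus. In the class of at least 300 CPM, 7 of 10 regulators were higher in dentate gyrus, against 39.0% of all genes.

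Neither of the 2 writers of DNA methylation was called. Dnmt1, which copies methylation onto new DNA strands, was at 52.7, 58.6 and 45.9 CPM in dentate gyrus replicates 1 to 3, against 72.5 and 71.0 CPM in cortex replicates 1 and 2. Its log2 change was -0.45 (SE 0.20, adjusted p 0.151). Dnmt3a, which methylates unmarked DNA, was at 78.5, 76.7 and 72.9 CPM in dentate gyrus, against 86.3 and 98.8 CPM in cortex, a log2 change of -0.28 (SE 0.18, adjusted p 0.303). All 3 dentate gyrus libraries were below both cortex libraries for each gene, and neither difference passed the test.

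Of 8 histone methyltransferases, 3 were higher in dentate gyrus and none was called lower by edgeR, DESeq2 or limma voom. The background by edgeR was 10.5% higher and 10.8% lower. Setd2, which methylates the bodies of transcribed genes, was at 305, 297 and 288 CPM in dentate gyrus, against 179 and 199.8 CPM in cortex (log2 0.65, SE 0.13, adjusted p 0.00586). Ash1l, a Trithorax-group methyltransferase, was at 1005, 971 and 955 CPM in dentate gyrus, against 688 and 729.8 CPM in cortex (log2 0.46, SE 0.10, adjusted p 0.00788). Ash1l was among the most abundant regulators, and for both genes the tissues lay further apart than the libraries within a tissue. Ezh1, the Polycomb methyltransferase that prevails in cells that no longer divide, was at 74.1, 70.9 and 61.7 CPM in dentate gyrus, against 39.1 and 35.2 CPM in cortex (log2 0.89, SE 0.21, adjusted p 0.0146). Its paralogue Ezh2, which prevails in dividing progenitors, was far scarcer, with 6.24, 2.71 and 10.5 CPM in dentate gyrus, against 1.37 and 1.80 CPM in cortex (log2 2.03, SE 0.78, adjusted p 0.0949). Dentate gyrus replicate 3 held the most Ezh2 and replicate 2 the least, and without replicate 2 the adjusted p was 0.0486. The 6 proliferation markers summed to 22.7, 20.1 and 33.5 CPM in dentate gyrus and 9.75 and 12.8 CPM in cortex. Ccnb1 and Cdk1 were at 0 in all 5 libraries and were not tested, and edgeR called none of the others. Pcna made up 12.6, 11.8 and 18.5 CPM of the dentate gyrus sums. Mki67 was at 8.03, 2.58 and 13.35 CPM in dentate gyrus, against 0.228 and 2.17 CPM in cortex (log2 2.75, SE 1.05, adjusted p 0.0949). What part proliferating cells had in the Ezh2 level was not tested.

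The heterodimer partners Ehmt1 and Ehmt2, which place a repressive methyl mark on histone H3, had estimates of opposite sign, neither of them called. Ehmt1 was at 28.0, 26.3 and 17.5 CPM in dentate gyrus, against 9.64 and 13.2 CPM in cortex (log2 1.07, SE 0.36, adjusted p 0.0634). Ehmt2 was at 18.4, 15.1 and 17.8 CPM in dentate gyrus, against 24.9 and 19.9 CPM in cortex (log2 -0.39, SE 0.31, adjusted p 0.436). The tissues did not overlap for either gene, and Ehmt1 had an adjusted p of 0.0215 by DESeq2. Nsd1, a methyltransferase of histone H3 mutated in Sotos syndrome, had a log2 change of 0.28 (SE 0.14). Setd5, named for a catalytic domain whose activity is disputed, was at 659, 599 and 615 CPM in dentate gyrus and at 633 CPM in both cortex libraries, a log2 change of -0.02 (SE 0.10). Among the called genes, the adjusted p of Ash1l was 0.0572 without cortex replicate 1, and that of Ezh1 was 0.0562 and 0.115 without cortex replicates 1 and 2. Without the omitted pair, adjusted p was 0.0964 for Setd2, 0.112 for Ash1l and 0.103 for Ezh1, with changes of 0.58, 0.43 and 0.95.

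Of 5 histone acetyltransferases, 3 were higher in dentate gyrus. These 3 were at a mean of at least 300 CPM, where 39.0% of all tested genes were higher. Kat6a, a MYST-family acetyltransferase (chromosome 8, 22859535 to 22943259, plus strand, GRCm38), had the smallest adjusted p of them. It was at 477, 388 and 394 CPM in dentate gyrus, against 184 and 156 CPM in cortex (log2 1.30, SE 0.15, adjusted p 0.000237). The lowest dentate gyrus library lay above the highest cortex library by a wide margin, and the call held in all 16 alternatives with an adjusted p of at most 0.00383. Its paralogue Kat6b was at 285, 213 and 222 CPM in dentate gyrus, against 124 and 196 CPM in cortex. It was not called (log2 0.58, SE 0.21, adjusted p 0.0805). The cortex libraries of Kat6b lay far apart, and without cortex replicate 2 its adjusted p was 0.0260.

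The coactivator paralogues Crebbp and Ep300, which acetylate histones at enhancers, rose together. Crebbp was at 467, 376 and 422 CPM in dentate gyrus, against 274 and 270.0 CPM in cortex (log2 0.63, SE 0.13, adjusted p 0.00724). Ep300 was at 379, 408 and 362 CPM in dentate gyrus, against 266 and 248 CPM in cortex (log2 0.57, SE 0.12, adjusted p 0.00834). Neither gene overlapped between tissues, and the sizes of their changes were within each other's error. Without cortex replicate 2 the adjusted p was 0.0601 for Crebbp and 0.0855 for Ep300, and without the omitted pair it was 0.0801 for Ep300. Kat2b, the acetyltransferase also called PCAF, was scarce at 4.19, 2.09 and 2.54 CPM in dentate gyrus, against 4.76 and 8.98 CPM in cortex (log2 -1.22, SE 0.65, adjusted p 0.230).

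**Figure D3:**
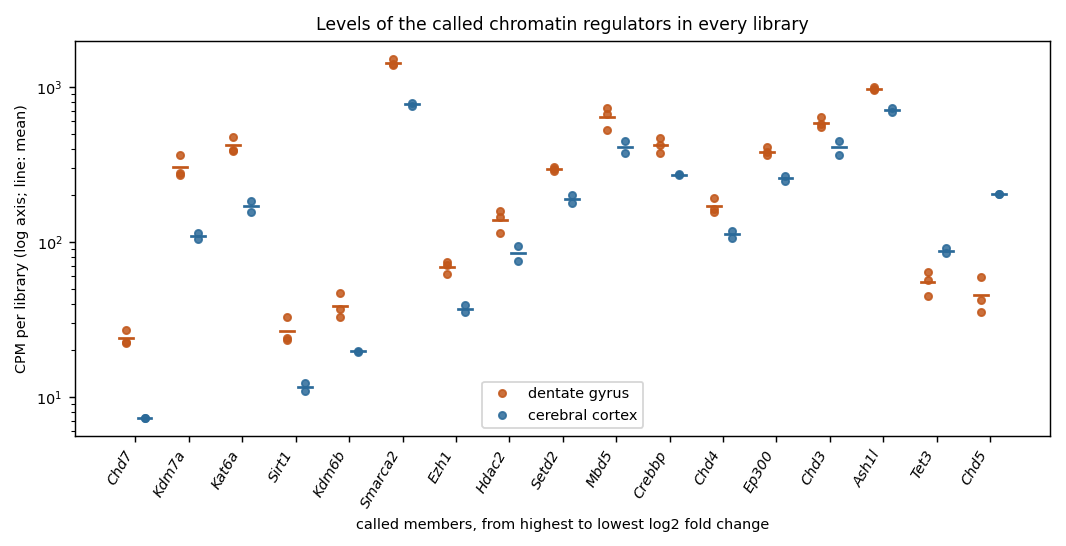
CPM of the 17 called regulators in every library on a log axis, with 3 dentate gyrus points left of 2 cerebral cortex points for each gene and the mean as a line. The genes run from the highest to the lowest log2 fold change. The libraries of the tissues are apart for each of them, as they are for 50.1% of all tested genes. The genes were called from these same libraries, so this adds no support.

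Among erasers of DNA methylation, 1 of the 3 TET dioxygenases was called, where the background in either direction was 21.3%. Tet3, the member best known from postmitotic neurons, was lower in dentate gyrus. It had 63.9, 56.5 and 44.6 CPM there, against 91.6 and 84.2 CPM in the cortex libraries (log2 -0.68, SE 0.21, adjusted p 0.0466). That call was close to the threshold and was lost in 6 of 16 alternatives, with an adjusted p of 0.0696 and 0.117 without dentate gyrus replicates 2 and 3, and 0.211 and 0.117 without cortex replicates 1 and 2. It was 0.266 without the omitted pair. Tet2 was at 124, 144 and 125 CPM in dentate gyrus, against 99.1 and 96.0 CPM in cortex (log2 0.43, SE 0.16, adjusted p 0.0932). Tet1 was at 59.5, 82.3 and 42.7 CPM in dentate gyrus, spanning the 60.3 and 53.9 CPM of cortex. Tet2 was the most abundant of the 3 per exon length in both tissues.

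Of 6 histone demethylases, 2 were higher in dentate gyrus, where the background was 10.5%. Kdm7a, a dioxygenase that removes repressive methyl marks from histone H3 (chromosome 6, 39136623 to 39206789, minus strand, GRCm38), was at 272, 279.5 and 362 CPM in dentate gyrus, against 104 and 114 CPM in cortex. The log2 change of Kdm7a was 1.48 (SE 0.17, adjusted p 0.000221), and the call held in all 16 alternatives. An annotated antisense gene, 4930599N23Rik, covers 287 of its 9566 exon bases, and without a stated strand setting reads there cannot be told apart. Kdm6b, which takes off the Polycomb mark, was at 46.5, 36.8 and 32.9 CPM in dentate gyrus, against 19.9 and 19.5 CPM in cortex (log2 0.97, SE 0.28, adjusted p 0.0316). Its antisense gene Kdm6bos covers 286 of 6654 exon bases. The Kdm6b call was lost in 6 of 16 alternatives, with an adjusted p of 0.0996 and 0.0572 without dentate gyrus replicates 1 and 2, and 0.125 and 0.155 without cortex replicates 1 and 2. It was 0.169 without the omitted pair. Kdm1a is the amine oxidase LSD1 of the CoREST complex, and Kdm3a, Kdm4a and Kdm5b also act on histone H3 lysines. All of these overlapped between tissues, with log2 changes of 0.17, -0.33, -0.63 and -0.13. The sign of the Kdm1a, Kdm3a and Kdm4a changes turned in 2, 2 and 1 of the alternatives.

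The window around the Kdm7a start is shown because its call held throughout and because it had the most CG dinucleotides of the regulators' windows, 65 in 300 bases. The sequences printed here are RefSeq windows on GRCm38.p6 (RefSeq's first listed start of each gene, mostly upstream sequence), written 5′ to 3′ on the gene's strand. Capitals mark matches, on either strand, to the motifs GGGCGG (GC box), CCGGAA (ETS), CCAAT, GCGC with any 2 bases and a further GCGC after it (NRF1), CACGTG (E-box) and TGACGTCA (CRE). Overlapping matches run together. The window is at chr6:39206724-39207023, minus strand.
Kdm7a: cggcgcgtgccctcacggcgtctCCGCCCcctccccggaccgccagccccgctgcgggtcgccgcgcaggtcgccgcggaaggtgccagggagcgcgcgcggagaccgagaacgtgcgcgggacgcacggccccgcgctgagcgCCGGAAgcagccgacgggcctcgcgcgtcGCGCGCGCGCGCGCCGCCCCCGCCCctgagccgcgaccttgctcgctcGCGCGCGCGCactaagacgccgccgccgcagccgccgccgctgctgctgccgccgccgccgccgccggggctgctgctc

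Kdm7a held 3 GC boxes, 4 NRF1 matches, some of them overlapping, and 1 ETS match in this window.

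Of 7 deacetylases, 2 were higher in dentate gyrus, where the background was 10.5%. Hdac2, the class I deacetylase that prevails in neurons, was at 114, 146 and 158 CPM in dentate gyrus, against 75.3 and 94.1 CPM in cortex (log2 0.72, SE 0.20, adjusted p 0.0293). Sirt1, an NAD-dependent deacetylase, was at 23.3, 32.6 and 24.1 CPM in dentate gyrus, against 10.98 and 12.3 CPM in cortex (log2 1.19, SE 0.33, adjusted p 0.0278). Both genes were apart in every library, yet each call was lost in 6 of 16 alternatives. For Hdac2 the adjusted p was 0.0631 and 0.0940 without dentate gyrus replicates 2 and 3, 0.175 and 0.0565 without cortex replicates 1 and 2, and 0.276 without the omitted pair. For Sirt1 it was 0.0927 and 0.0512, 0.130 and 0.103, and 0.261 in the same order. Hdac1, the partner of Hdac2 in most corepressor complexes, was at only 6.04, 6.84 and 10.02 CPM in dentate gyrus, against 1.996 and 2.13 CPM in cortex (log2 1.89, SE 0.61, adjusted p 0.0541). It passed by DESeq2, with an adjusted p of 0.00921.

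Hdac11, the class IV deacetylase, had a negative estimate. It was at 25.9, 47.8 and 46.2 CPM in dentate gyrus, against 91.4 and 60.8 CPM in cortex (log2 -0.93, SE 0.30, adjusted p 0.0533). It lay just outside the threshold and passed in 9 of 16 alternatives, among them DESeq2 with an adjusted p of 0.0136, and the antisense genes Gm14573 and Gm44002 cover 690 of its 2653 exon bases. Hdac3 of the NCoR complex, the tubulin deacetylase Hdac6 and Hdac8 overlapped between tissues, with log2 changes of -0.06 (SE 0.34), 0.02 (SE 0.59) and -0.06 (SE 1.10). Their replicates were unequal, with Hdac3 at 21.1 and 43.5 CPM in the cortex libraries and Hdac8 at 0.773, 0.888 and 4.82 CPM in the dentate gyrus libraries.

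Of the 3 readers with a methyl-CpG-binding domain, Mbd5 was higher in dentate gyrus. Mbd5, whose domain is not known to bind methylated DNA, was at 728, 666 and 527 CPM in dentate gyrus, against 376 and 448 CPM in cortex (log2 0.64, SE 0.15, adjusted p 0.0158). Its adjusted p was 0.119 without cortex replicate 1, 0.210 without the omitted pair, and 0.0520 with the exon-length trend taken out. Mbd1, which binds methylated CG and recruits repressors, was at 49.6, 40.1 and 41.9 CPM in dentate gyrus, against 28.9 and 21.3 CPM in cortex (log2 0.80, SE 0.26, adjusted p 0.0556, and 0.0178 by DESeq2). Mbd2, the methyl-CG reader of a NuRD complex, overlapped between tissues, with 59.0 to 83.4 CPM in dentate gyrus against 62.1 and 75.6 CPM in cortex.

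Among 8 BAF and PBAF subunits, only the ATPase Smarca2 was called in edgeR, where the background in either direction was 21.3%. Smarca2, also called BRM (chromosome 19, 26605050 to 26778322, plus strand, GRCm38), was at 1524, 1403 and 1387 CPM in dentate gyrus, against 749 and 794 CPM in cortex. The log2 change of Smarca2 was 0.90 (SE 0.10, adjusted p 0.000171), and the call held in all 16 alternatives. The alternative ATPase Smarca4, or BRG1, was at 149, 126 and 126 CPM in dentate gyrus, against 134 and 124 CPM in cortex, so the tissues overlapped (log2 0.05, SE 0.16). None of the other 7 subunits was called by edgeR, DESeq2 or limma voom. The alternative BAF subunits Arid1a and Arid1b had log2 changes of 0.01 (SE 0.12) and 0.03 (SE 0.18), and the PBAF subunit Arid2 had 0.34 (SE 0.18). The core scaffold Smarcc2 was at 360.2, 348 and 367 CPM in dentate gyrus, against 435 and 403 CPM in cortex (log2 -0.23, SE 0.11, adjusted p 0.198). Actl6b, the actin-related subunit of the neuronal complex, was at 17.7, 19.1 and 18.3 CPM in dentate gyrus, against 17.9 and 12.5 CPM in cortex, and the core subunit Smarcb1 had a log2 change of 0.65 (SE 0.43).

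The start windows of the ATPase paralogues are set side by side because 1 of them differed between tissues and the other was not called. Smarca2 is at chr19:26604910-26605209, plus strand, and Smarca4 at chr9:21615919-21616218, plus strand.
Smarca2: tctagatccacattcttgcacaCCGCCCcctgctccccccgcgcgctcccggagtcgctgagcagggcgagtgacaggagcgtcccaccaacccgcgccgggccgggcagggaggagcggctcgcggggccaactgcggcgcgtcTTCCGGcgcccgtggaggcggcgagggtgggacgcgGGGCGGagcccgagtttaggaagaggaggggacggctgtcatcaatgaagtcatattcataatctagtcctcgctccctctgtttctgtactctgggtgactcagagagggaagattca
Smarca4: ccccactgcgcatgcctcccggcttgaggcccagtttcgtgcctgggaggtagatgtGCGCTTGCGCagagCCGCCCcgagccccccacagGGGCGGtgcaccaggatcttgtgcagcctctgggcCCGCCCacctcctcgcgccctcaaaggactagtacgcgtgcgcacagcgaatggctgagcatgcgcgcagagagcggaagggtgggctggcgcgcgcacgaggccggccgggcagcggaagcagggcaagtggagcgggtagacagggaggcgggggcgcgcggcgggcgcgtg

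Smarca2 held 29 CG dinucleotides, 2 GC boxes and 1 ETS match. Smarca4 held 33 CG dinucleotides, 3 GC boxes and 1 NRF1 match.

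The CHD remodellers moved in both directions, with 3 of 5 higher in dentate gyrus and 1 lower, where the background was 10.5% and 10.8%. Chd5, a neuron-enriched ATPase of the NuRD deacetylase complex (chromosome 4, 152338651 to 152390194, plus strand, GRCm38), was at 35.4, 59.6 and 42.0 CPM in dentate gyrus, against 203 CPM in each cortex library. Its log2 change of -2.15 (SE 0.22, adjusted p 0.000127) was the largest decrease among the 47 genes, and the call held in all 16 alternatives with log2 changes from -2.41 to -2.02. The antisense gene Gm13645 covers 101 of its 9486 exon bases. Its NuRD alternatives went the other way. Chd3 was at 637, 578 and 554 CPM in dentate gyrus, against 366 and 452 CPM in cortex (log2 0.53, SE 0.13, adjusted p 0.0171). Chd4 was at 191, 156 and 164 CPM in dentate gyrus, against 118 and 106 CPM in cortex (log2 0.60, SE 0.16, adjusted p 0.0242). Both were above cortex in every dentate gyrus library, but by much less than the Chd5 difference.

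Chd7, the remodeller mutated in CHARGE syndrome and known for its role in neural stem cells, was at 27.1, 22.4 and 22.6 CPM in dentate gyrus, against 7.36 and 7.34 CPM in cortex (log2 1.71, SE 0.34, adjusted p 0.00613). Chd8, an autism gene, overlapped between tissues, with 63.0 to 68.7 CPM in dentate gyrus against 62.6 and 75.9 CPM in cortex. Without cortex replicate 1 the adjusted p was 0.135 for Chd3 and 0.0661 for Chd4, and without cortex replicate 2 it was 0.180 for Chd4. The Chd4 adjusted p was 0.0754 and 0.0584 without dentate gyrus replicates 1 and 3. Without the omitted pair, it was 0.192 for Chd3, 0.0767 for Chd4 and 0.0683 for Chd7.

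Start windows of Chd5 and Chd4, NuRD ATPases that differed in opposite directions, are given for comparison. Chd5 is at chr4:152338401-152338700, plus strand, and Chd4 at chr6:125095731-125096030, plus strand.
Chd5: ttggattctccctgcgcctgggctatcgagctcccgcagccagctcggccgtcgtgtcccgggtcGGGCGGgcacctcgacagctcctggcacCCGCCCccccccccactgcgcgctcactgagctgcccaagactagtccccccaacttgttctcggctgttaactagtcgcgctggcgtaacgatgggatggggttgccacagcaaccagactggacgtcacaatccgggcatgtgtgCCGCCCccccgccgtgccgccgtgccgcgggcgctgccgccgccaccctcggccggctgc
Chd4: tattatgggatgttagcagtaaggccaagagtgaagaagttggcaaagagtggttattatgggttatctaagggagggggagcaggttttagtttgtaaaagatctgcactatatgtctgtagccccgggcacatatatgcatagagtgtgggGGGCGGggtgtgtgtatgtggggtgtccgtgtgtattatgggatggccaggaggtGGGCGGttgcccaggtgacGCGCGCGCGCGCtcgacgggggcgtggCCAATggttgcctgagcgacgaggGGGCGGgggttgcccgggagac

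Chd5 held 32 CG dinucleotides and 3 GC boxes. Chd4 held 17 CG dinucleotides, 3 GC boxes, 1 CCAAT and 2 overlapping NRF1 matches. Of the 47 regulators, 36 had a window. Their median GC content was 66.8% against 52.7% over all 27025 genes with a window, whether tested here or not. The regulators' median number of CG dinucleotides was 27.5 against 7. GC boxes were in 77.8% of the regulators' windows and 35.9% of all windows, and NRF1 matches in 27.8% and 6.4%. What part the GC content had in these shares was not tested. E-box, ETS and CCAAT matches were in 8.3%, 13.9% and 36.1% of the regulators' windows, against 7.2%, 15.2% and 37.9% of all windows. The CRE motif matched no regulator's window and 1.9% of all windows. The lowest numbers of CG dinucleotides were 1 for Setd5 and 2 for Dnmt1, at the first start that RefSeq lists.

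Scaled to exon length, levels of the regulators spanned a wide range. Smarca2 was highest in both tissues, at 197 ± 10.3 CPM per kilobase in dentate gyrus (SD, n = 3) and 106 ± 4.35 in cortex (SD, n = 2), and lay above the next gene in every library. In dentate gyrus, Setd5, Ash1l and Chd3 followed at 91.7 ± 4.57, 83.9 ± 2.18 and 81.2 ± 5.86 CPM per kilobase. Setd5 lay above Ash1l in every library, while Ash1l and Chd3 overlapped. In cortex, Setd5 and Smarcc2 came next at 92.9 and 81.5 ± 4.38 CPM per kilobase, followed by Ash1l at 60.9 ± 2.52 and Chd3 at 56.3 ± 8.31, which overlapped. The order differed most for Chd5, which ranked 36 of 47 in dentate gyrus and 14 in cortex. Hdac11 ranked 21 and 8, Kat6a 7 and 19, and Kdm7a 13 and 22. At the low end, Kat2b, Hdac8, Kdm4a and Hdac6 were at 0.632 to 1.70 CPM per kilobase in dentate gyrus, where neighbours differed by less than their spread. In cortex the lowest were Ezh2 at 0.566 ± 0.110, Chd7 at 0.709 and Hdac1 at 1.01 ± 0.0477 CPM per kilobase. Exon lengths are unions of the GENCODE M21 basic transcripts, which may differ from the annotation the authors counted with.

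**Figure D4:**
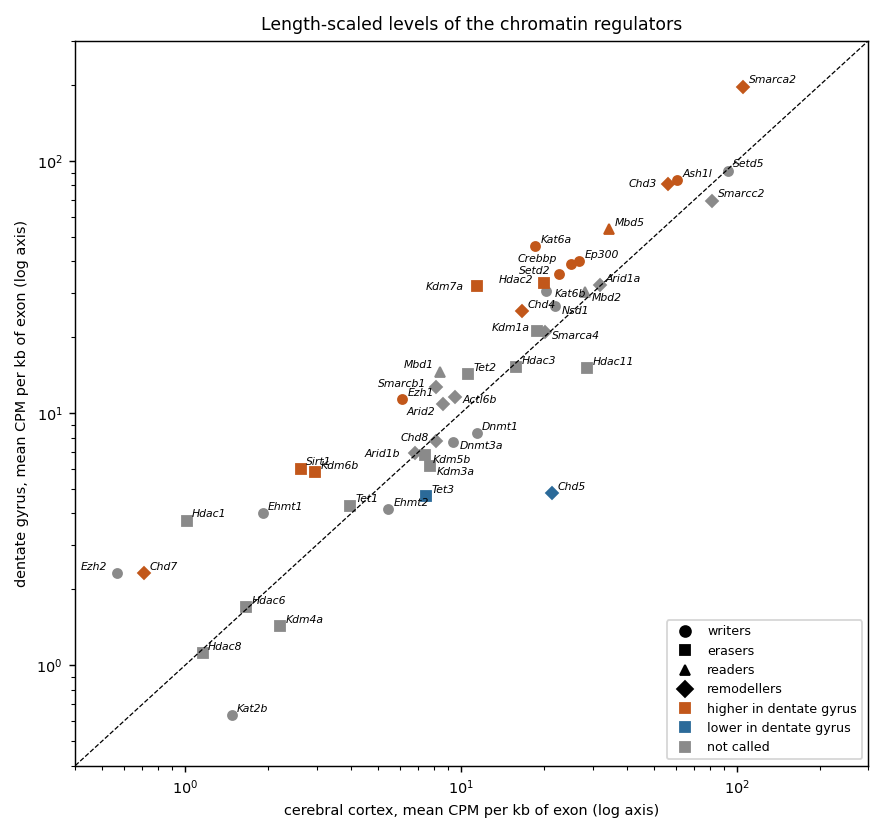
Mean CPM per kilobase of exon of the 47 regulators in dentate gyrus on the vertical axis and in cerebral cortex on the horizontal axis, both log axes, with equal levels on the dashed line. Symbols mark roles and colours mark calls. Chd5 lies far below the line, while Kdm7a, Kat6a and Chd7 lie above it.

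Ratios between related genes within a library do not depend on library scaling, and 12 such ratios of counts per kilobase were compared. With 3 against 2 libraries an exact two-sided permutation test cannot give a p below 0.1, so none could pass 0.05. For 6 of 12 ratios the tissues did not overlap. Among single tested genes 50.1% did not overlap, and no such share was worked out for ratios of other gene pairs. The Chd5 over Chd4 ratio was 0.131, 0.271 and 0.181 in dentate gyrus, against 1.21 and 1.36 in cortex, a log2 difference of -2.79. In cortex the level of Chd5 was thus above that of Chd4, and in dentate gyrus below it. The Smarca2 over Smarca4 ratio was 8.95, 9.75 and 9.61 in dentate gyrus, against 4.90 and 5.60 in cortex, a log2 difference of 0.85. Smarca2 prevailed in all 5 libraries.

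The Tet3 over Tet2 ratio was 0.402, 0.308 and 0.280 in dentate gyrus, against 0.725 and 0.688 in cortex, a log2 difference of -1.11. The Hdac2 over Hdac1 ratio was 9.03, 10.2 and 7.58 in dentate gyrus, against 18.04 and 21.1 in cortex, a log2 difference of -1.13, and Hdac2 exceeded Hdac1 throughout. The Ehmt1 over Ehmt2 ratio was 1.05, 1.20 and 0.678 in dentate gyrus, against 0.267 and 0.458 in cortex, a log2 difference of 1.44. The Kat6a over Kat6b ratio was 1.45, 1.57 and 1.53 in dentate gyrus, against 1.28 and 0.686 in cortex, so its difference of 0.69 rested mainly on cortex replicate 2 and was 0.24 without it. For each of the 6 ratios without overlap the exact permutation p was 0.1, or 0.2 after Benjamini-Hochberg adjustment over the 12. Crebbp over Ep300 and Arid1b over Arid1a were nearly the same in both tissues, with log2 differences of 0.05 and 0.02 whose sign turned when single libraries were left out. Ezh1 over Ezh2 ranged from 2.69 to 11.97 in dentate gyrus and was 13.03 and 8.89 in cortex, so Ezh1 exceeded Ezh2 in every library. Actl6b over Actl6a, the neuronal over the progenitor subunit, ranged from 1.19 to 2.76 in dentate gyrus and was 2.75 and 3.43 in cortex, and Dnmt3a over Dnmt1 and Chd3 over Chd4 overlapped as well.

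**Figure D5:**
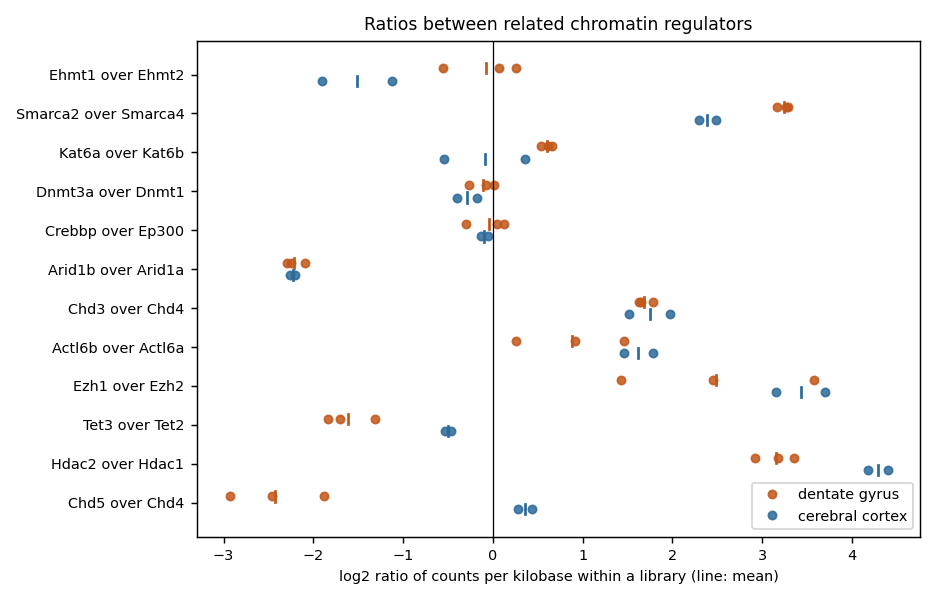
Log2 ratio of counts per kilobase between related regulators within each library, dentate gyrus above cerebral cortex for each pair, with the mean as a line. The pairs run from the highest to the lowest difference between the tissues. Chd5 over Chd4 lies just right of 0 in cortex and well to the left of 0 in dentate gyrus, and Smarca2 over Smarca4 is to the right of 0 in all libraries.

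A further 115 chromatin genes outside the 47 were read for context, of which 113 were tested, 24 were higher in dentate gyrus and 5 lower. These are 21.2% and 4.42%, against the background of 10.5% and 10.8%, and their median log2 change was 0.34. The median level of this set was 46.7 CPM, against 13.6 CPM over all tested genes. What part level and exon length had in these shares was not tested. Among writers, Kmt2e, Kmt5a (listed as Setd8) and Kmt2c, of the histone methyltransferase families, had log2 changes of 0.81 (SE 0.11), 1.13 (SE 0.16) and 1.02 (SE 0.15). The Polycomb partners of Ezh1, Eed and Suz12, chosen after their values were seen, were also higher, at 1.37 (SE 0.29) and 0.88 (SE 0.19). Jarid2, a further Polycomb partner on the list, was not called, at 0.03 (SE 0.24). Among erasers, Rcor3, a CoREST scaffold for Kdm1a, was at 52.4 ± 6.91 CPM in dentate gyrus (SD, n = 3), against 6.96 ± 0.654 CPM in cortex (SD, n = 2), a log2 change of 2.91 (SE 0.29). The demethylase genes Kdm6a, which shares the substrate of Kdm6b, and Jmjd1c had log2 changes of 1.66 (SE 0.18) and 0.88 (SE 0.12). Among readers, Bptf, a NURF subunit, and the heterochromatin protein gene Cbx5 had log2 changes of 0.66 (SE 0.11) and 0.61 (SE 0.12). Among remodellers, the NuRD subunit Gatad2b (1.36, SE 0.17) and the ATPase Srcap (0.66, SE 0.13) were higher, while Chd6 was lower (-0.80, SE 0.18). Of further BAF subunits, named after their values were seen, Smarcd2 was higher in dentate gyrus at 2.06 (SE 0.62), while Smarcc1 and Smarcd1 were lower at -0.55 (SE 0.16) and -0.65 (SE 0.19).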

How the data were processed

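Ribosome-bound RNA was analysed in 3 dentate gyrus and 2 cerebral cortex libraries, grouped by their titles. Each library has 1 deposited table of raw, whole-number read counts by gene symbol. STAR 2.0.0e and HTSeq were used on mm10, per the submitters' processing notes. No version of HTSeq, annotation, strand setting or rule for overlaps between genes is given in the sources used here. Reads without a feature (10.6% to 14.8% of counted reads), ambiguous reads (1.81% to 1.87%) and reads that were not unique (25.0% to 31.8%) were left out of library sizes.

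The members, gene lists, pairs and tests were chosen with earlier results of these data known. Counts were fitted with edgeR 4.0.16 (R 4.3.3), using TMM scaling, filterByExpr, quasi-likelihood F test on tissue alone, dentate gyrus minus cortex, and Benjamini-Hochberg adjustment over 14136 genes. Adjusted p-values come from this test unless another tool is named. Members called at an adjusted p under 0.05 and those of a named pair are described library by library, with roles from textbook knowledge. Of the other chromatin genes, the 3 called genes with the smallest adjusted p in each role are named, apart from 1 that is not reported here. The procedure was tested on simulated counts. Ratios used a prior count of 0.5. Alternatives were DESeq2 1.42.0, limma 3.58.1 voom, other scalings, filters, a robust dispersion, a replicate block, removal of Rn45s and omission of libraries. Removal of an exon-length trend was added after the data were seen. Promoter windows are RefSeq's on GRCm38.p6, the same build as mm10. Figures were drawn with matplotlib 3.10.9.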

Additional observations from a re-analysis of the deposited data

How the results depend on the processing

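With cortex represented by 2 libraries, the counts depended most on which library was left out. Leaving out each library in turn gave 1886 to 2775 genes called (main count 3009), 7 to 13 regulators higher in dentate gyrus (15) and 1 to 2 lower (2). Without cortex replicate 1 the counts were 1906, 7 and 1, without cortex replicate 2 they were 1886, 9 and 2, and without dentate gyrus replicate 3 the lower count was 1. With the omitted pair (cortex replicate 1, dentate gyrus replicate 2) left out they were 1578, 4 and 1. Where 1 cortex library remained, it was assumed to vary like the dentate gyrus libraries. Of 17 called regulators, 4 (Kat6a, Kdm7a, Smarca2 and Chd5) were called in all 16 alternatives, 13 were lost in at least 1, and no call reversed. Of 30 that were not called, 7 were called in at least 1 alternative. DESeq2 called 21 higher and 3 lower. Scaling, filters, robust dispersion, limma voom, removal of Rn45s and of the exon-length trend kept every count within 1.5 times.

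Replicate numbers 1 and 2 are shared by the tissues, but deviations of same-numbered libraries correlated at -0.004 and -0.016, so the numbers were not taken to pair libraries. With a replicate block 2237 genes were called, with 11 regulators higher and 1 lower. It ended the calls of Tet3 (adjusted p 0.166), Kdm6b (0.0563), Hdac2 (0.0695), Sirt1 (0.0591) and Chd4 (0.0503). Log2 differences in ratio that changed sign when a library was left out ranged from -0.031 to 0.18 for Crebbp over Ep300, from -0.044 to 0.059 for Arid1b over Arid1a and from -0.29 to 0.16 for Chd3 over Chd4. The log2 changes of the scarce genes Ezh2, Hdac1, Kat2b and Hdac8 had an SE of 0.78, 0.61, 0.65 and 1.10, so smaller changes in them could not be called.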
